A study of Homo sapiens with 9 samples.

Results

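The unfolded protein and ATF4 response genes are 40 human genes that were taken by symbol from a gene table of 17083 rows. They were chosen by name, with no threshold on measured values, though earlier results of these data were known: targets and partners of the transcription factor ATF4, the kinases and phosphatase subunits that act on the translation factor eIF2α, and genes of protein folding and degradation in the endoplasmic reticulum (ER). All 40 were found in the table, and all 40 passed the filter on low counts that left 12924 genes for testing. RNA was sequenced from HEK293T cells, an SV40 large T antigen-carrying line from human embryonic kidney that the labels give as epithelial and of wild-type genotype. The 3 groups were cells made to express FLAG-tagged PLK2, cells made to express PLK2(D223N) with the same tag, whose kinase domain carries a substitution, and cells given an empty FLAG vector (Vector). Each group had 3 libraries, which the labels call biological replicates, and the comparison asks which transcripts differ once the kinase, or its substituted form, is overexpressed. The kinase activity of either construct, the amount of either protein and the time between transfection and harvest were not analysed here.

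PLK2, polo-like kinase 2, is a serine/threonine kinase. The unfolded protein response begins when misfolded proteins build up in the ER and engage its membrane sensors. PERK (gene EIF2AK3) phosphorylates eIF2α, which slows most protein synthesis while favouring translation of ATF4. IRE1α (gene ERN1) splices the XBP1 message, and ATF6 is cut to release a transcription factor. GCN2 (gene EIF2AK4) phosphorylates eIF2α when amino acids are scarce, so ATF4 also serves as the output of the wider integrated stress response. ATF4 raises genes of amino acid synthesis and transport together with DDIT3 (the factor CHOP) and TRIB3, and PPP1R15A (the protein GADD34) closes the loop by directing a phosphatase to eIF2α. Phosphorylation of eIF2α, translation of ATF4 and splicing of XBP1 cannot be read from gene-level RNA values.

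The promoters were searched for exact letters of the pathway's DNA elements close to the start of the genes. RefSeq promoter sequences (GRCh38.p14, from 250 bases before to 50 bases after the start) were matched for 36 of the 40 genes. PDIA3, PSPH, PYCR1 and SHMT2 had no match. Letters were searched on both strands for the amino acid or CHOP-ATF response element (CARE, TGATGNAAN), the ER stress response element (ERSE, by name), ERSE-II (by name), the unfolded protein response element (UPRE, TGACGTGN) and the cyclic AMP response element (CRE, TGACGTCA). The 3 windows below belong to the phosphatase subunits PPP1R15A and PPP1R15B, whose RNA levels are described first, and to HYOU1, an ER chaperone. Capitals mark the matched letters.
PPP1R15A, chr19:48872171-48872470, plus strand: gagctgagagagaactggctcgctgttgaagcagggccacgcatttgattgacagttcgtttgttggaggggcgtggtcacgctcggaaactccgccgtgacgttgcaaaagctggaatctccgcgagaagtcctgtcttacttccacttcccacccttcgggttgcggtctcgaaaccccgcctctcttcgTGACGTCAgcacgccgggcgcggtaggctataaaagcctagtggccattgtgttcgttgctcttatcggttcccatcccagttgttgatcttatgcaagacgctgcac
PPP1R15B, chr1:204411768-204412067, minus strand: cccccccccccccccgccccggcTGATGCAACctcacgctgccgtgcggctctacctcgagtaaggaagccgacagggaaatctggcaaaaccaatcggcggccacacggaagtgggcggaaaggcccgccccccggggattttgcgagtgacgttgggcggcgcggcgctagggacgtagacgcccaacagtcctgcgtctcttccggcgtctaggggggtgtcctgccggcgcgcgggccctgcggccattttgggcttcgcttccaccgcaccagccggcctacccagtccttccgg
HYOU1, chr11:119057156-119057455, minus strand: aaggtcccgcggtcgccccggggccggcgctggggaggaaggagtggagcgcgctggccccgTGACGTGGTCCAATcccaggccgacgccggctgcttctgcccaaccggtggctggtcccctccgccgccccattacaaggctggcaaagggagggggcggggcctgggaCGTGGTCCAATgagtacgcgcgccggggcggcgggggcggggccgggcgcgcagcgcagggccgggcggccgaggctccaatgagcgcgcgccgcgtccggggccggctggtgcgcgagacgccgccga
The PPP1R15A window holds a CRE whose first base lies at -58 from the start, and PPP1R15B holds a CARE at -227. HYOU1 holds ERSE-II on the opposite strand at -185 and again at -79, and a UPRE at -188 that overlaps the distal ERSE-II.

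Among the 36 genes, CARE letters were found in 6, or 16.7%, against 4.45% of the 27305 genes in the promoter table. They were ASNS, CEBPG, CHAC1, HERPUD1, PPP1R15B and SLC3A2, among them the standard ATF4 targets ASNS and CHAC1. ERSE letters stood in the windows of 5 genes, or 13.9% against 0.0916% of all genes, and these were CALR, CANX, CRELD2, PDIA6 and XBP1, all but XBP1 ER-resident. Their matches differ in the 9 spacer bases, which are printed in lower case.
XBP1: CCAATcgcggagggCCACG
PDIA6: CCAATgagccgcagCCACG
CALR: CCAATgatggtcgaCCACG
CANX: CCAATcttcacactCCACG
CRELD2: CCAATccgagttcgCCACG
ERSE-II letters were found for HERPUD1, HYOU1 and SDF2L1 (8.33% against 0.0696%), and only a base within the element differs between them.
HERPUD1: ATTGGgCCACG
HYOU1: ATTGGaCCACG
SDF2L1: ATTGGtCCACG
The UPRE was found for ALDH18A1 and HYOU1 (5.56% against 2.39%), and the CRE for PPP1R15A alone of the 36 (2.78% against 2.25%). These matches describe letters in a window and not binding. A gene without a match may still hold an element with differing letters or outside the window. The genes were chosen by name as members of these pathways, so the shares beside all genes are a description and not a test. The 36 genes had 53 windows, and the 27305 genes had 35116.

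The libraries held from 14288165 to 16510186 estimated counts, and the 40 genes together took from 0.706% to 0.795% of them. PLK2 RNA followed the labels, at 23744 ± 2384 CPM in PLK2, 12358 ± 1650 CPM in PLK2(D223N) and 3.42 ± 0.64 CPM in Vector libraries (CPM: counts scaled to library size by TMM; SD, n = 3 each). PLK2 RNA was thus higher with PLK2 than with PLK2(D223N), by 0.94 on the log2 scale (SE 0.09), so each difference between the constructs below is also one between unequal levels of PLK2 RNA, and those cannot be told apart. As for the cell type, 8 of 8 markers listed for the line were in the table, with a summed level of 572 to 667 CPM. Most of it was VIM (589 TPM), a gene that fibroblasts also express, with the keratins KRT18 and KRT8 at 69.6 and 23.7 TPM and the epithelial genes EPCAM and CDH1 at 2.74 and 1.4 TPM, so the sum does not set epithelial cells apart. Summed levels were 1.73 to 3.79 CPM for leukocyte, 12.8 to 15.1 CPM for fibroblast and 0.48 to 0.99 CPM for endothelial markers. Vector replicate 1 stood apart. Over all genes its chi-square per gene was 17.7 against Vector replicate 2 and 10.8 against Vector replicate 3, while the other 7 pairs within a group gave 1.63 to 2.81. It was the highest of the 9 libraries for 20 of the 40 genes, and for 31.1% of all tested genes. It was the lowest for 4 of the 40, and for 31.2% of all tested genes. Some results against Vector are therefore also given without it. The others rest on all 3 Vector libraries and may change when it is left out.

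In these cells the 40 genes covered a wide range of levels. Per length, in the authors' TPM, a level scaled by transcript length and library size (mean ± SD over the 9 libraries), the ER lectin chaperones calnexin (CANX, 728 ± 27 TPM) and calreticulin (CALR, 726 ± 40 TPM) were highest, with library ranges that overlap (671 to 766 TPM for CANX and 684 to 820 TPM for CALR). ATF4 followed at 584 ± 19 TPM, above its partner CEBPG (35.3 ± 2.1 TPM) and far above CEBPB (8.38 ± 0.65 TPM) and ATF5 (6.46 ± 0.73 TPM), other leucine zipper factors of the response. The disulfide isomerase PDIA6 stood at 368 ± 17 TPM, and the serine synthesis enzymes PHGDH and PSAT1 at 278 ± 15 and 262 ± 6 TPM. Of the sensors, EIF2AK3 had 14.3 ± 1.4 TPM, ATF6 25.9 ± 1.2 TPM and ERN1 5.88 ± 0.19 TPM. The lowest genes were CHAC1, a glutathione-degrading enzyme, at 2.84 ± 0.64 TPM, and the lipoprotein receptor VLDLR, at 1.01 ± 0.14 TPM. PPP1R15A ranked 20th at 59.0 ± 10.5 TPM.

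**Figure D1:**
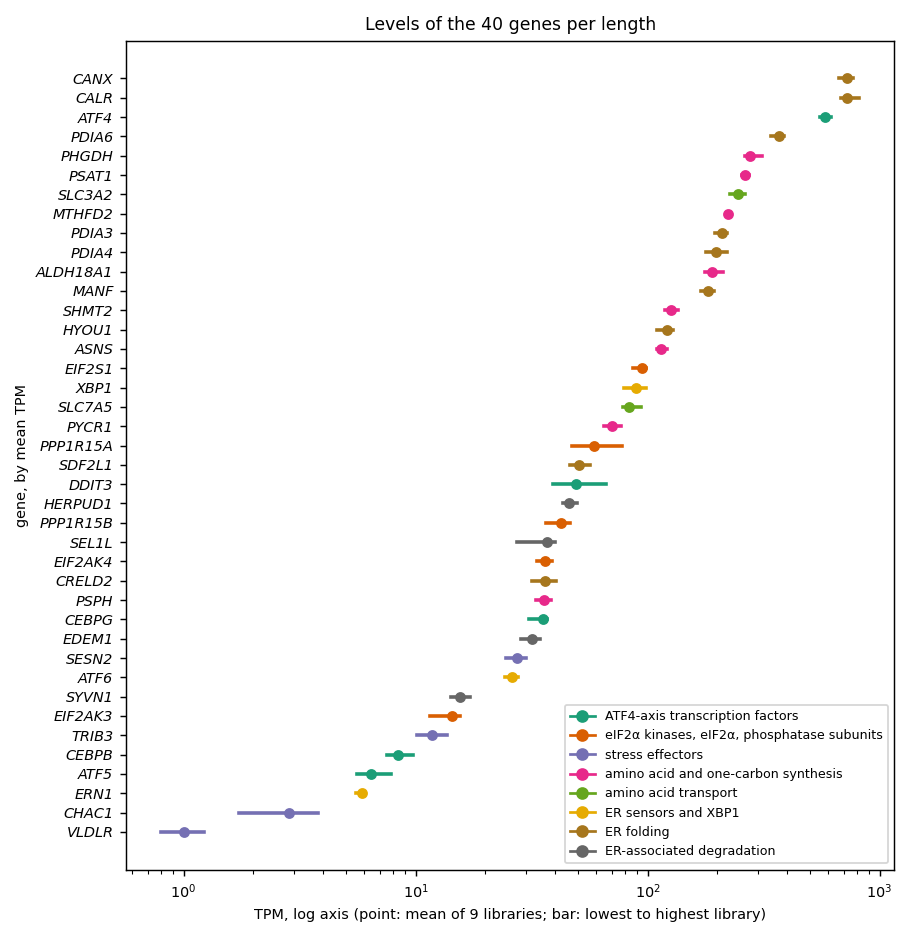
Mean TPM of the 40 genes over the 9 libraries on a log axis, ordered by level and coloured by role, with bars from the lowest to the highest library. ER folding genes and ATF4 lie at the top, from 584 to 728 TPM for the first 3, and VLDLR at the bottom at 1.01 TPM.

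PPP1R15A was the gene of the 40 that rose with PLK2, and it rose against both other groups. PPP1R15A (NCBI gene table symbol, GENCODE release 29 on GRCh38, chromosome 19, 48872392 to 48876057, plus strand) had 81.4, 90.9 and 77.2 CPM in PLK2 libraries, 61.8, 57.8 and 63.9 CPM in PLK2(D223N) libraries, and 65.3, 52.9 and 55.6 CPM in Vector libraries. All 3 PLK2 libraries lie above all 6 others, and the PLK2(D223N) and Vector libraries overlap. The means were 83.1 ± 7.0, 61.1 ± 3.1 and 57.9 ± 6.5 CPM (SD, n = 3 each). In PLK2 against Vector the log2 fold change was 0.52 (SE 0.08, edgeR quasi-likelihood test, adjusted p = 0.00762), and in PLK2 against PLK2(D223N) it was 0.44 (SE 0.08, adjusted p = 0.0382). In PLK2(D223N) against Vector it was 0.08 (95% interval -0.10 to 0.25, adjusted p = 0.739).

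The PPP1R15A call against Vector was lost in 1 of 19 alternative analyses, without PLK2 replicate 2 (log2 fold change 0.45, adjusted p = 0.0943). The call against PLK2(D223N) was lost in 8 of the 19, with log2 fold changes from 0.38 to 0.50. These were the removal of any 1 PLK2 library (adjusted p from 0.0784 to 0.319), of any 1 PLK2(D223N) library (0.158 to 0.320) or of Vector replicate 3 (0.0699), and limma on log2(TPM + 1) (0.104). In the fit to only the 6 libraries compared, the adjusted p was 8.42e-08.

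**Figure D2:**
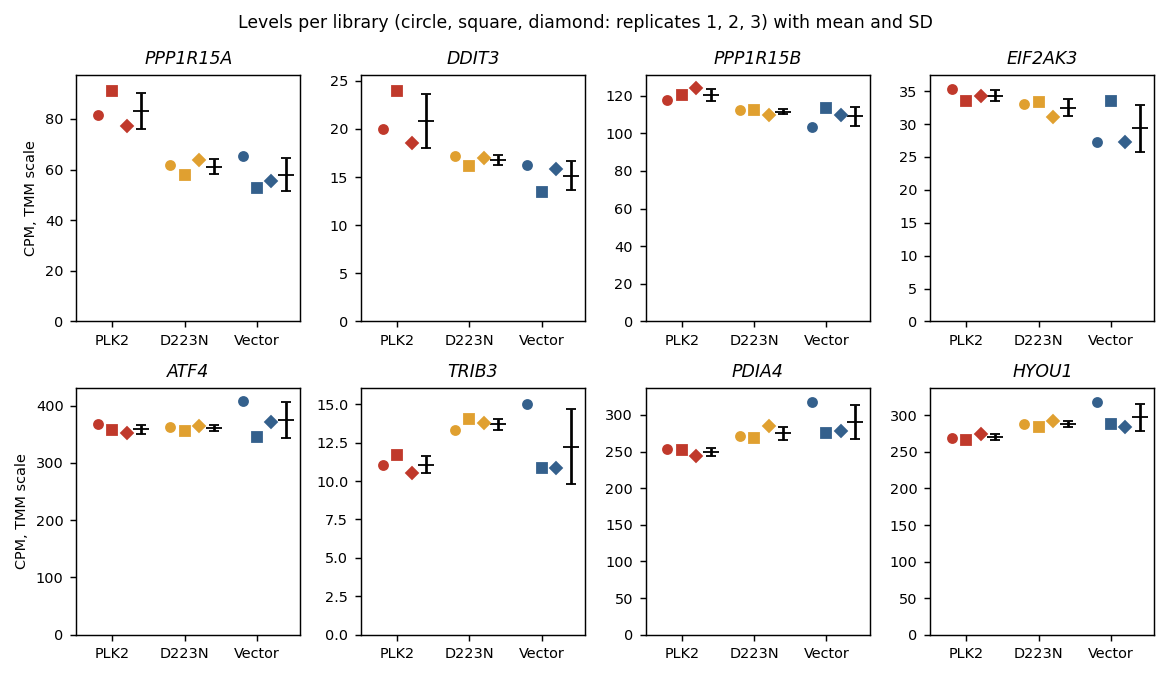
CPM on the TMM scale in each library for 8 of the genes, with PLK2, PLK2(D223N) and Vector from left to right, each replicate as its own symbol, and the mean with SD as a bar. For PPP1R15A the 3 PLK2 libraries, from 77.2 to 90.9 CPM, lie above the other 6, while for ATF4 the groups overlap.

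Across all 40 genes, 1 was called higher and 0 lower in PLK2 against Vector at an adjusted p below 0.05, against 0.480% of all tested genes called higher and 0.0310% lower. DESeq2 called 2 higher (PPP1R15A and DDIT3) and 0 lower, with 0.68% of all genes called in either direction. At an unadjusted p below 0.05, 4 were higher and 7 lower (all tested genes: 9.56% higher, 6.81% lower). Libraries of the groups did not overlap for 4 genes higher and 8 lower, that is 10% and 20% of the 40, with 10% and 10.1% among all tested genes. The median log2 fold change was -0.03 for the 40 genes and 0.00 for all tested genes. Without Vector replicate 1 the median of the 40 was 0.01, with 24 of 40 above 0 in place of 16. The counts then were 3 higher (PPP1R15A, DDIT3 and SLC3A2) and 1 lower (PDIA4), with 2.38% and 0.407% of all genes. Without Vector replicate 2 they were 5 higher (PPP1R15A, DDIT3, EIF2AK3, PPP1R15B and SEL1L) and 3 lower (PDIA4, CALR and XBP1), with 9.25% and 3.46% of all genes.

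In PLK2(D223N) against Vector, edgeR called 0 of the 40 in either direction, with 0.0232% of all genes called higher and 0% lower. DESeq2 also called 0, with 0.041% of all genes called in either direction. At an unadjusted p below 0.05, 0 were higher and 1, the disulfide isomerase PDIA3, was lower (all genes: 5.22% and 3.30%). Libraries did not overlap for 0 genes higher and 4 lower (all genes: 6.66% and 7.21%). The median log2 fold change was -0.04, against 0.01 for all tested genes, and it was 0.01 for the 40 genes without Vector replicate 1. The 95% interval of the fold change lay within 0.5 of 0 on the log2 scale for 38 of the 40, all but CHAC1 and VLDLR.

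Between the constructs, PLK2 against PLK2(D223N), edgeR called 1 gene higher (PPP1R15A) and 0 lower, with 0.155% and 0.00774% of all genes. At an unadjusted p below 0.05, 5 were higher and 2 lower (all genes: 2.98% and 3.06%). Libraries did not overlap for 10 genes higher and 7 lower (all genes: 11% and 9.49%), which is 25% and 17.5% of the 40. When the 6 libraries of these groups were fitted alone, without the spread of the Vector libraries, 5 of the 40 were called higher (PPP1R15A, DDIT3, SLC3A2, ATF6 and PPP1R15B) and 3 lower (PDIA4, TRIB3 and HYOU1). In that fit 2.92% of all genes were called higher and 0.999% lower. The fold changes hardly moved: the median of the 40 was -0.01 in either fit.

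**Figure D3:**
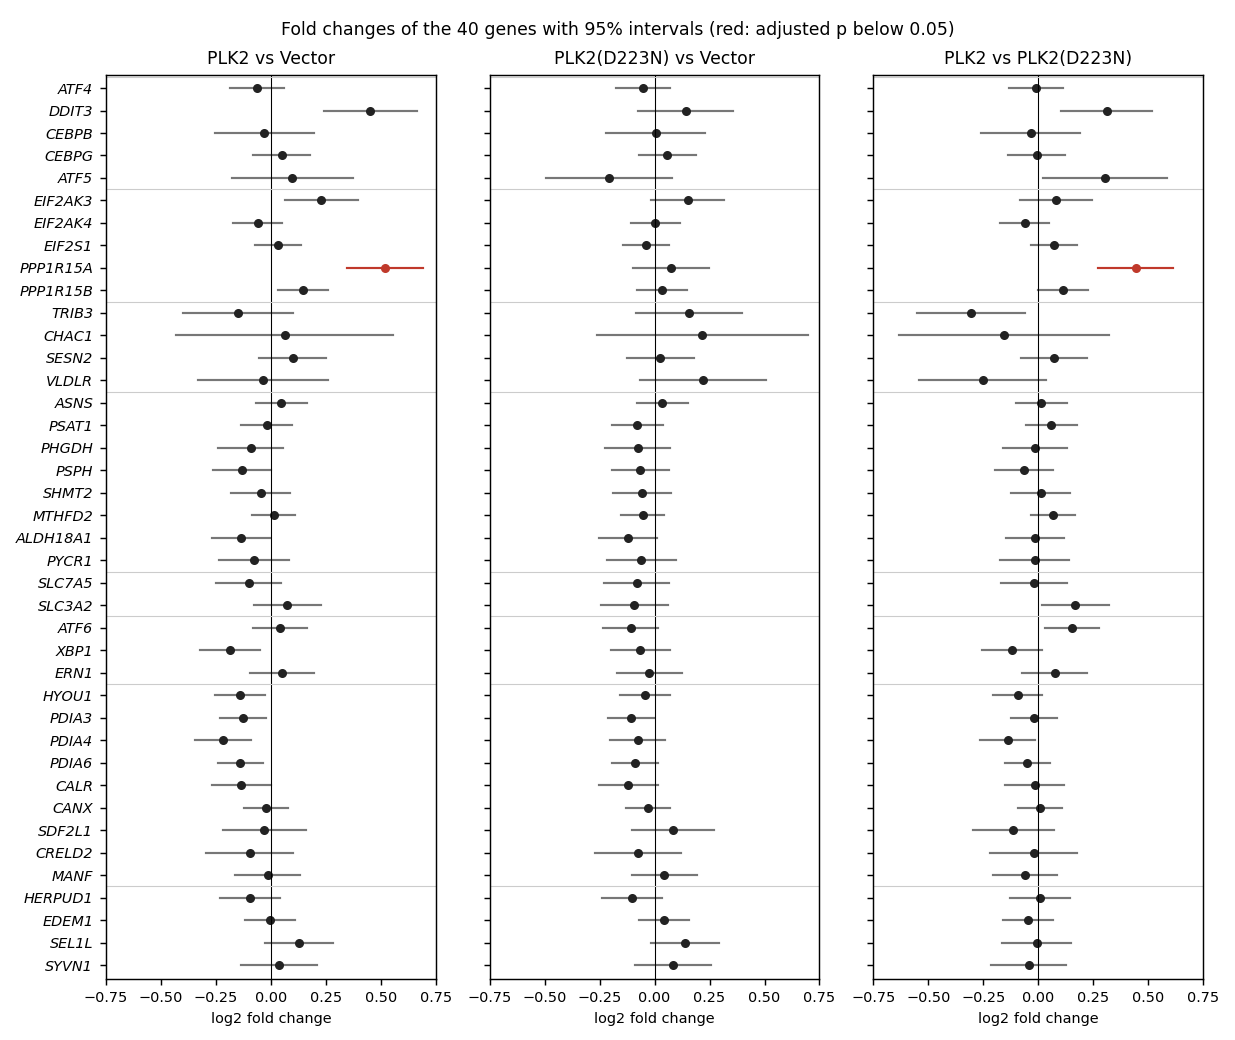
Log2 fold changes of the 40 genes, grouped by role, with 95% intervals in the 3 comparisons, and red for an adjusted p below 0.05. PPP1R15A is red against Vector (0.52) and against PLK2(D223N) (0.44), and most other intervals lie within 0.5 of 0. Those of DDIT3, ATF5, TRIB3, CHAC1 and VLDLR reach past that bound in at least 1 panel.

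Among the kinases, substrate and phosphatase subunits of eIF2α, 1 of 5 was called in PLK2 against Vector. PPP1R15B, the constitutive counterpart of PPP1R15A, had 117.6, 120.2 and 124.0 CPM with PLK2, 112.6, 112.3 and 109.9 CPM with PLK2(D223N), and 103.4, 113.6 and 110.0 CPM with Vector. The PLK2 libraries are again the 3 highest of the 9, but the difference is small: 0.15 against Vector (SE 0.05, adjusted p = 0.210) and 0.11 against PLK2(D223N) (SE 0.05, adjusted p = 0.833). EIF2AK3, the kinase PERK, had 35.3, 33.5 and 34.3 CPM with PLK2, 33.0, 33.4 and 31.0 CPM with PLK2(D223N), and 27.3, 33.4 and 27.3 CPM with Vector. Its Vector libraries split, with replicate 2 close to the PLK2 and PLK2(D223N) libraries. The log2 fold change in PLK2 against Vector was 0.23 (SE 0.08, adjusted p = 0.191), and 0.33 (adjusted p = 0.00650) without Vector replicate 2. That fit called 9.25% of all genes higher. Without Vector replicate 1 EIF2AK3 was not called. EIF2AK4, the amino acid sensor GCN2, and EIF2S1, which encodes eIF2α itself, gave log2 fold changes in PLK2 against Vector of -0.06 (95% interval -0.17 to 0.05) and 0.03 (-0.07 to 0.14).

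DDIT3 had the second largest difference in PLK2 against Vector, and did not pass the test. DDIT3, the pro-apoptotic factor CHOP (chromosome 12, 57516588 to 57521737, minus strand), had 20.0, 23.9 and 18.6 CPM in PLK2 libraries, 17.1, 16.2 and 17.0 CPM in PLK2(D223N) libraries, and 16.2, 13.5 and 15.8 CPM in Vector libraries. The PLK2 libraries are the 3 highest, as for PPP1R15A. The log2 fold change was 0.45 against Vector (SE 0.10, adjusted p = 0.0538) and 0.31 against PLK2(D223N) (SE 0.10, adjusted p = 0.536). It passed against Vector in 6 of 19 alternatives, among them the DESeq2 Wald test (adjusted p = 0.0258), and against PLK2(D223N) in 2 of 19. In GENCODE release 29, 355 of the 1307 exonic bases of DDIT3, or 27.2%, are shared with MARS1 on the opposite strand, and the strand setting of the counting is not given in the sources used here. MARS1, a methionyl-tRNA synthetase, gave -0.02 (SE 0.05) against Vector and -0.01 (SE 0.05) against PLK2(D223N).

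The other ATF4-axis factors were not called in any of the 3 comparisons. ATF4 had 367.3, 357.4 and 351.6 CPM with PLK2, 361.8, 356.1 and 365.1 CPM with PLK2(D223N), and 407.3, 345.9 and 371.5 CPM with Vector. The groups overlap, and the log2 fold change in PLK2 against Vector was -0.06 (95% interval -0.19 to 0.06, adjusted p = 0.571). It was -0.05 (-0.18 to 0.07) in PLK2(D223N) against Vector and -0.01 (-0.13 to 0.11) in PLK2 against PLK2(D223N). ATF5 had 7.85, 6.41 and 6.65 CPM with PLK2, 6.09, 5.56 and 5.29 CPM with PLK2(D223N), and 7.61, 5.69 and 6.15 CPM with Vector. Its PLK2 libraries all lie above its PLK2(D223N) libraries (0.30, SE 0.13, adjusted p = 0.787), while the Vector libraries span both. ATF5 shares 21.2% of its exonic bases with NUP62 on the opposite strand. CEBPG and CEBPB gave 0.05 (SE 0.06) and -0.03 (SE 0.11) in PLK2 against Vector.

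None of the 4 stress effectors was called in any of the 3 comparisons by edgeR across the 9 libraries. TRIB3, a pseudokinase that ATF4 and CHOP raise, had 11.0, 11.7 and 10.5 CPM with PLK2, 13.3, 14.0 and 13.8 CPM with PLK2(D223N), and 15.0, 10.8 and 10.8 CPM with Vector. Its PLK2(D223N) libraries lie above all PLK2 libraries (-0.31 in PLK2 against PLK2(D223N), SE 0.12, adjusted p = 0.713, and 0.0309 in the fit to those 6 libraries), and 1 Vector library, replicate 1, is the highest of the 9. SESN2, a stress-induced brake on mTORC1, gave 0.10 (95% interval -0.05 to 0.25) in PLK2 against Vector. CHAC1, at 1.29 to 2.55 CPM over the 9 libraries, gave 0.06 with an interval from -0.43 to 0.56, too wide to place it. VLDLR gave -0.03 (-0.33 to 0.26).

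The genes of amino acid supply showed no called change. Of the 8 enzymes of amino acid and one-carbon synthesis, edgeR and DESeq2 called 0 in PLK2 against Vector (1 lower at an unadjusted p below 0.05). The median log2 fold change was -0.06, with 6 of 8 below 0. Without Vector replicate 1 the median was 0.01, with 6 of 8 above 0. ASNS, asparagine synthetase and a standard ATF4 target, had 125.9, 120.7 and 119.1 CPM with PLK2, 115.3, 122.0 and 125.2 CPM with PLK2(D223N), and 122.7, 113.7 and 117.2 CPM with Vector. The groups overlap, and the difference against Vector was 0.05 (95% interval -0.07 to 0.16). ALDH18A1, which begins proline synthesis, had 311.6, 310.1 and 312.6 CPM with PLK2, 307.5, 315.2 and 320.8 CPM with PLK2(D223N), and 380.8, 320.6 and 323.6 CPM with Vector. Its Vector libraries all lie above its PLK2 libraries, and Vector replicate 1 is far above the rest (-0.13, SE 0.06, adjusted p = 0.302). PSPH, the last enzyme of serine synthesis, gave -0.13 (SE 0.06, adjusted p = 0.310). MTHFD2, a mitochondrial folate enzyme, gave 0.01 (-0.09 to 0.11), and PSAT1 gave -0.02 (-0.14 to 0.10).

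SLC3A2 and SLC7A5 encode the chains of a heterodimeric amino acid transporter, and neither was called in any of the 3 comparisons across the 9 libraries. SLC3A2 had 246.5, 250.4 and 229.0 CPM with PLK2, 220.8, 205.6 and 219.8 CPM with PLK2(D223N), and 260.1, 214.1 and 214.9 CPM with Vector. Vector replicate 1 is the highest of the 9 and the other Vector libraries lie with PLK2(D223N). The log2 fold change was 0.07 (SE 0.07, adjusted p = 0.594) in PLK2 against Vector, and 0.17 (adjusted p = 0.00604) without Vector replicate 1. Against PLK2(D223N) it was 0.17 (SE 0.07, adjusted p = 0.779), with an adjusted p of 0.000236 in the fit to those 6 libraries. SLC7A5 gave -0.10 (SE 0.07) against Vector and -0.02 (SE 0.07) against PLK2(D223N).

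None of the ER sensors ATF6 and ERN1, nor XBP1, was called in any of the 3 comparisons across the 9 libraries. XBP1, which encodes the factor made from the message that IRE1α splices, had 66.6, 70.8 and 68.9 CPM with PLK2, 74.0, 69.9 and 80.3 CPM with PLK2(D223N), and 83.2, 75.3 and 75.9 CPM with Vector. All Vector libraries lie above all PLK2 libraries, and the log2 fold change, -0.18 (SE 0.06, adjusted p = 0.193), did not pass. Spliced and unspliced XBP1 are not separated in a gene-level count. ATF6 had 61.4, 63.9 and 64.1 CPM with PLK2, 58.3, 55.6 and 56.6 CPM with PLK2(D223N), and 58.4, 60.1 and 65.4 CPM with Vector. Its PLK2 libraries lie above its PLK2(D223N) libraries (0.15, SE 0.06, adjusted p = 0.715, and 0.0326 in the fit to those 6 libraries), and the Vector libraries overlap with the PLK2 ones (0.04, SE 0.06). ERN1 gave 0.05 (95% interval -0.10 to 0.20) against Vector.

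All 9 ER folding genes had a negative log2 fold change in PLK2 against Vector, with a median of -0.13, and edgeR called 0 of the 9, as did DESeq2. At an unadjusted p below 0.05, 5 of the 9 were lower (6.81% of all tested genes). Libraries did not overlap, with PLK2 lower, for 5 of the 9 (10.1% of all tested genes), and 48.9% of all tested genes had a fold change above 0. PDIA4, a disulfide isomerase, had 253.0, 252.7 and 243.6 CPM with PLK2, 271.7, 268.1 and 285.4 CPM with PLK2(D223N), and 317.3, 275.7 and 277.5 CPM with Vector. Its PLK2 libraries are the 3 lowest of the 9 (-0.22, SE 0.06, adjusted p = 0.118 against Vector, and -0.14, SE 0.06, adjusted p = 0.779 against PLK2(D223N)). HYOU1, whose promoter is printed above, had 269.4, 266.0 and 274.5 CPM with PLK2, 287.8, 284.2 and 292.7 CPM with PLK2(D223N), and 318.9, 288.7 and 284.2 CPM with Vector. Again the PLK2 libraries are the 3 lowest (-0.14 against Vector, SE 0.05, adjusted p = 0.231). PDIA6 gave -0.14 (SE 0.05, adjusted p = 0.205), PDIA3 gave -0.13 (SE 0.05, adjusted p = 0.236) and CALR gave -0.14 (SE 0.06, adjusted p = 0.305). CANX, the most abundant, gave -0.02 (95% interval -0.12 to 0.08).

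Part of that difference moves with 1 library. Vector replicate 1 was the highest of the 9 libraries for 7 of the 9 folding genes, and it exceeded the mean of the other Vector libraries by a median of 0.15 on the log2 scale over the folding genes, and by 0.02 over all tested genes. Without it the median of the folding genes in PLK2 against Vector was -0.05, with 7 of 9 below 0, and PDIA4 was called (-0.15, adjusted p = 0.0121). In PLK2 against PLK2(D223N), which uses no Vector value for its fold change, 8 of 9 were below 0 with a median of -0.05, and libraries did not overlap for 4, all lower in PLK2. Over all tested genes 47.9% were above 0 in that comparison, and libraries did not overlap with PLK2 lower for 9.49%. In PLK2(D223N) against Vector the median was -0.08, and -0.01 without Vector replicate 1.

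**Figure D4:**
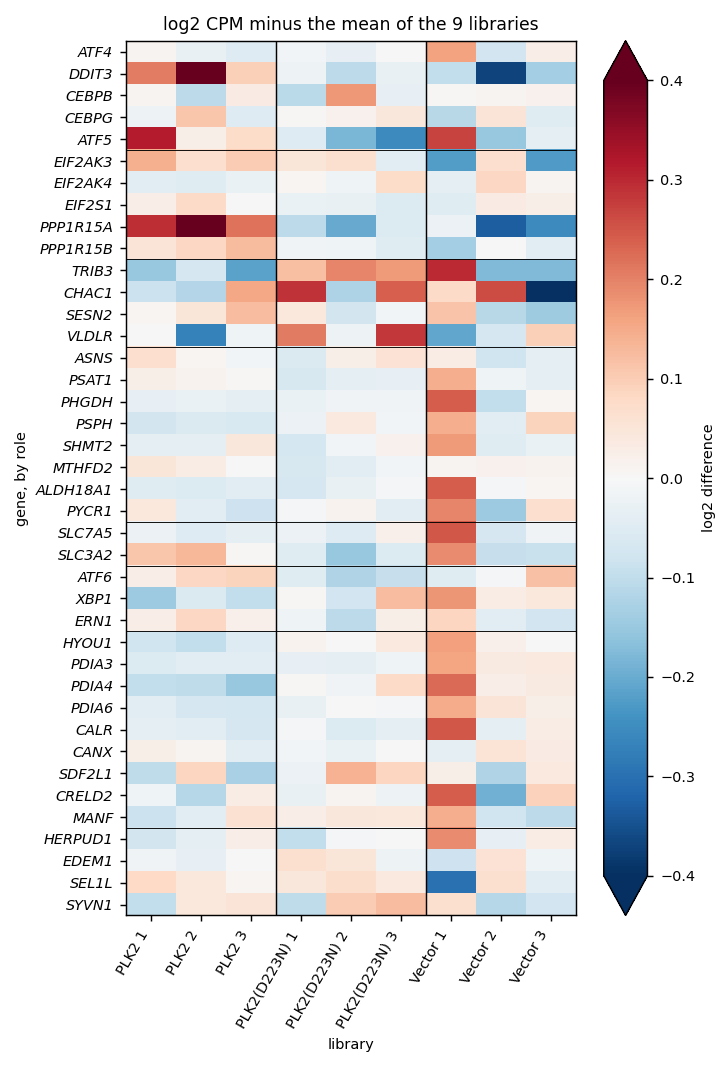
Log2 CPM of each gene (rows, by role) in each library (columns) minus the mean of the gene's 9 libraries, with red above and blue below that mean. The 3 PLK2 columns are red for PPP1R15A and DDIT3 and pale blue for PDIA4, and the Vector replicate 1 column holds the highest value for 7 of the 9 folding genes.

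The genes of ER-associated degradation gave no call in any of the 3 comparisons across the 9 libraries. SEL1L, the scaffold of the HRD1 ubiquitin ligase, had 139.6, 136.1 and 132.8 CPM with PLK2, 136.3, 138.8 and 135.9 CPM with PLK2(D223N), and 107.5, 138.2 and 128.2 CPM with Vector. Here Vector replicate 1 is the lowest of the 9 (0.13, SE 0.07, adjusted p = 0.371). Without Vector replicate 2 the log2 fold change of SEL1L was 0.21 (edgeR adjusted p = 0.0397), in a fit that called 9.25% of all genes higher. That fit keeps Vector replicate 1. With Vector replicate 1 left out instead, 0 of the 4 degradation genes were called, SEL1L among them. SYVN1, the HRD1 ligase itself, gave 0.04 (95% interval -0.13 to 0.21). EDEM1, a mannosidase-like lectin that hands glycoproteins over for degradation, gave 0.00 (-0.12 to 0.11), and HERPUD1, a membrane component of the same machinery, gave -0.09 (-0.23 to 0.04).

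The 95% intervals bound the changes these libraries allow. In PLK2 against Vector the interval lay within 0.5 of 0 on the log2 scale for 37 of the 40 genes, all but PPP1R15A, DDIT3 and CHAC1. In PLK2 against PLK2(D223N) it did for 34, all but PPP1R15A, DDIT3, ATF5, TRIB3, CHAC1 and VLDLR. The replicates set these widths: the median coefficient of variation of the 40 genes was 2.66% over PLK2, 2.63% over PLK2(D223N) and 8.09% over Vector libraries, and 4.46%, 4.10% and 8.97% over all tested genes in the same groups.

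Other genes of the same pathways were counted from a list of 57, of which 55 were tested (DERL3 and NUPR1 fell under the filter). In PLK2 against Vector 1 of 55 was called higher and 0 lower, with 6 higher and 5 lower at an unadjusted p below 0.05. All tested genes gave 0.480% and 0.0310% called, and 9.56% and 6.81% at an unadjusted p below 0.05. The called gene was CREBRF, which encodes a regulator of CREB3, another leucine zipper factor tied to the ER. CREBRF had 52.1, 55.7 and 48.6 CPM with PLK2, 35.1, 33.4 and 33.0 CPM with PLK2(D223N), and 25.9, 33.4 and 29.2 CPM with Vector. It rose by 0.83 (log2) against Vector (SE 0.08, adjusted p = 7.43e-05) and by 0.62 against PLK2(D223N) (SE 0.08, adjusted p = 0.00188), where it was the only one of the 55 called.

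In PLK2(D223N) against Vector the 1 called gene of the 55 was ATF3, a stress-induced factor and partner of CHOP. ATF3 had 73.8, 74.8 and 71.3 CPM with PLK2, 91.0, 80.9 and 86.8 CPM with PLK2(D223N), and 69.1, 57.3 and 58.9 CPM with Vector. Its libraries fall into 3 groups without overlap, with PLK2(D223N) highest. The log2 fold change in PLK2(D223N) against Vector was 0.48 (SE 0.07, adjusted p = 0.0261), a call that held in 11 of 19 alternatives, and in PLK2 against Vector it was 0.25 (SE 0.07, adjusted p = 0.135). ATF3 in PLK2 against Vector passed in 3 of 19 alternatives. Leaving out Vector replicate 1 gave 0.33 (adjusted p = 3.77e-05), and removing GC and length trends gave 0.28 both without and with the replicate block (adjusted p = 0.00606 and 0.00386). In PLK2 against PLK2(D223N) ATF3 gave -0.23 (SE 0.07, adjusted p = 0.446), which passed in 4 of 19, among them the fit to those 6 libraries (adjusted p = 7.70e-05). HSPA5, the chaperone BiP and a standard reporter of ER stress, had 1150, 1157 and 1166 CPM with PLK2, 1220.4, 1236 and 1264 CPM with PLK2(D223N), and 1268, 1242 and 1228 CPM with Vector. It was lowest in the 3 PLK2 libraries, with log2 fold changes of -0.11 (SE 0.04, adjusted p = 0.263) against Vector and -0.10 (SE 0.04, adjusted p = 0.790) against PLK2(D223N). Against PLK2(D223N) it passed as lower in 2 of 19 alternatives, the fit to those 6 libraries (adjusted p = 0.0168) and without Vector replicate 1 (0.0483). DNAJB9, a co-chaperone and target of spliced XBP1, gave -0.09 (95% interval -0.29 to 0.10) against Vector. These belong to 11 listed ER chaperones, oxidases and translocation genes outside the 40, whose median in PLK2 against Vector was 0.00, with 6 of 11 above 0 and 0 called. Vector replicate 1 enters that median, as the lowest of the 9 libraries for some of the 11 and the highest for others, among them HSPA5. For HSP90B1 it had 793 CPM, with 1048 and 989 CPM in Vector replicates 2 and 3, and 1024, 1045 and 985 CPM with PLK2. The median of the 11 without Vector replicate 1 was not computed.

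The composition of the transcripts and the bases shared with other genes were also looked at. The median GC content was 51.9% over the 40 genes and 49.9% over all tested genes, and that of PPP1R15A was 58.8%. With GC and length trends of each library removed, the call of PPP1R15A against Vector held, DDIT3 passed (0.47, adjusted p = 0.00492), and PDIA4 and PDIA6 passed as lower (-0.19 and -0.20, adjusted p = 0.0238 and 0.0359). In that fit 2.24% of all genes were called in either direction, against 0.511% in the main fit. By annotation 11 of the 40 genes share exonic bases with another protein-coding gene, PPP1R15A not among them. PDIA6 shares 25.2% with ATP6V1C2 and MTHFD2 27.2% with SLC4A5, both on the opposite strand. On the same strand, ASNS shares 44.6% with AC079781.5, which is annotated as a processed transcript. PYCR1 shares 14.1% with MYADML2, DDIT3 8.0% with AC022506.1 and SYVN1 7.2% with FAU, also on the same strand. The effect of such overlaps on the counts was not tested.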

How the data were processed

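RNA from 9 cultures was measured by polyadenylated RNA-seq, per the labels' protocols. The submitters' processing notes name GRCh38.p13 as the build, and RSEM 1.3.1, Bowtie2 and DESeq2 1.4.5 as tools, with no strand setting. The authors deposited estimated counts per gene and, per the file headers, TPM, FPKM and scaled counts, of which the 18 per-library columns of the last 2 kinds were not used. One Vector library's title has transposed letters, and its column was matched by its number. The expected counts were rounded, filtered with filterByExpr (12924 genes), scaled by TMM and fitted over 9 libraries with edgeR 4.0.16 (quasi-likelihood, robust, group as the only term, two-sided p, Benjamini-Hochberg adjustment over all tested genes, threshold 0.05). SE is the fold change over the root of its F statistic. R 4.3.3, limma 3.58.1, DESeq2 1.42.0, Python 3.11.15 and matplotlib 3.10.9 were used.

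The 40 genes, their roles, the list of 57 further genes and the rule for named genes were set from textbook knowledge with earlier results of these data known. That rule takes every gene called, the sensors and phosphatase subunits, ATF4 and DDIT3, the 2 members of smallest p in each role and comparison, the highest and lowest by TPM, and HSPA5, DNAJB9, ATF3 and PLK2. CEBPB, CEBPG, ASNS, PHGDH, EIF2AK4, EIF2S1, CHAC1, MARS1 and HSP90B1 are named besides. Alternatives were DESeq2 size factors and its Wald test, no filter, a stricter filter, a replicate term, PLK2 left out of scaling, limma on log2(TPM + 1), a fit to 6 libraries, and each library left out. The removal of GC and length trends (loess, span 0.3), alone and with the replicate term, was added after seeing the data. The main edgeR fit was tested on counts simulated for PLK2 against Vector, with no library set apart. The alternative fits were not tested in this way. P-values set each difference against the spread between cultures. In the fit over 9 libraries that spread was estimated over all groups together, so comparisons of the constructs also carry the spread of the Vector libraries.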

Additional observations from a re-analysis of the deposited data

How the results depend on the processing

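Of 1596 fold changes of the 28 genes of the 40 chosen by the naming rule, over 19 alternatives and 3 comparisons, 1558 kept their call, 29 passed only in the alternative, 9 no longer passed and 0 reversed while called. Counts of the 40 genes moved as follows. In PLK2 against Vector, the DESeq2 Wald test and no filter gave 2 higher (DDIT3 and PPP1R15A), with 0.68% and 0.797% of all genes called. The removal of GC and length trends gave 2 higher and 2 lower (PDIA4 and PDIA6), without or with the replicate block. These trend-removed fits called 2.24% and 1.98% of all genes, and the main fit 0.511%. In PLK2 against PLK2(D223N), limma on log2(TPM + 1) gave 0 higher (all genes called: 0.0917%). The 6 libraries alone gave 5 higher and 3 lower (all genes called: 3.92%). With each library left out in turn, the counts ranged in PLK2 against Vector from 0 to 5 higher and 0 to 3 lower, and in PLK2 against PLK2(D223N) from 0 to 3 higher and 0 to 2 lower. The share of all genes called ranged from 0.1% to 12.7% and from 0.0691% to 2.43% in the same fits. The cause of these moves was not tested, though fits without a library estimate the spread from fewer samples. In PLK2(D223N) against Vector each of the 19 alternatives gave 0 in both directions.

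ATF3 in PLK2(D223N) against Vector was not called in 8 of 19 alternatives, with adjusted p between 0.0563 and 0.439 there. These were the 6 libraries alone and the removal of Vector replicate 3, of any PLK2(D223N) library or of any PLK2 library. CREBRF in PLK2 against PLK2(D223N) was lost under limma on log2(TPM + 1) (adjusted p = 0.129).

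No clear pairing of the libraries by replicate number was seen. Same-numbered libraries correlated between -0.11 and 0.14 in their deviations from the group means, and other pairs between -0.22 and 0.12. Of the 9 libraries, 4 correlated best with their own number. With 3 libraries a group, such values cannot exclude a pairing. The fit with the replicate block gave 1 higher and 0 lower, 0 and 0, and 1 and 0 in the 3 comparisons, the counts without it. Precision is limited by 3 libraries a group: the median SE of the 40 log2 fold changes was 0.06 in each comparison.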
